A study of Mus musculus with 12 samples.

Results

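The genes described here are 34 members of the antioxidant defence of the cell. They were listed by name and not by a rule on their values, but earlier results of these data were known. They cover regulators of the transcription factor NRF2, glutathione supply and use, and the thioredoxin system. Also included are the peroxiredoxins, the superoxide dismutases and catalase, and haem breakdown and quinone reduction. All 34 were among the 24562 genes of the count table, and all 34 passed the filter on low counts that left 12641 genes for testing. RNA had been sequenced from macrophages of the peritoneal cavity, which take up microbes and dead cells there. The mice were female and ate a high fat diet (HFD) or chow, and LPS, the lipopolysaccharide of bacterial outer membranes, had been given for 24 h or 0 h. The 12 libraries form 4 groups of 3: HFD 24 h, HFD 0 h, chow 24 h and chow 0 h. The labels name no strain, genotype or age, no LPS dose and no route, and they do not say whether libraries of a group are separate animals, so a p-value here speaks only to the spread among libraries, some of which may be technical. No group without LPS was taken at 24 h, so LPS and the time elapsed cannot be told apart.

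NRF2, encoded by Nfe2l2, is a transcription factor that KEAP1 holds in the cytoplasm and hands to a ubiquitin ligase. When electrophiles or oxidants modify KEAP1, NRF2 accumulates, pairs with small MAF proteins and binds antioxidant response elements in front of genes for glutathione synthesis, thioredoxin recycling and haem breakdown. Peroxiredoxins and glutathione peroxidases then reduce peroxides with electrons that come from NADPH through thioredoxin or glutathione, and superoxide dismutases supply part of that peroxide from superoxide. In macrophages, LPS acts through Toll-like receptor 4 and NF-kB, and the resulting burst of oxidants is the setting in which these enzymes are usually studied.

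To show the kind of sequence NRF2 reads, 60 bases are printed around 1 match to the antioxidant response element core in each of 6 members. Slc7a11 and Gclm are shown as 2 of the 3 glutathione supply genes that rose, and Gstp1, Srxn1, Prdx1 and Osgin1 as the members in which such a match overlaps AP-1 letters. The sequences are RefSeq promoter sequences of GRCm38.p6, given 5′ to 3′ on the strand of the gene, and capitals mark the match to the core TGANNNNGC on either strand.
Slc7a11: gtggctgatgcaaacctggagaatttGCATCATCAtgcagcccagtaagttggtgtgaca
Gclm: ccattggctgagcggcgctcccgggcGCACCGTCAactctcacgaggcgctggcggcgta
Gstp1: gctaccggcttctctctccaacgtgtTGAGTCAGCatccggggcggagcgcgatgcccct
Srxn1: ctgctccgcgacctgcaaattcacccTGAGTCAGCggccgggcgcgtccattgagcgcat
Prdx1: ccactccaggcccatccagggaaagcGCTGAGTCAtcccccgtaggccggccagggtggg
Osgin1: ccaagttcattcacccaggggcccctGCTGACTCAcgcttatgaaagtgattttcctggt
The Slc7a11 stretch lies at chr3:50443625-50443684 on the minus strand, with its match 45 bases upstream of the annotated start. For Gclm it is chr3:122245397-122245456 on the plus strand, 134 bases upstream. The Gstp1 stretch is chr19:4037953-4038012 on the minus strand, 74 bases upstream. For Srxn1 it is chr2:152105453-152105512 on the plus strand, 45 bases upstream. The Prdx1 stretch is chr4:116685440-116685499 on the plus strand, 133 bases upstream. For Osgin1 it is chr8:119437022-119437081 on the plus strand, 99 bases upstream. In Gstp1, Srxn1, Prdx1 and Osgin1 the capitals also hold the AP-1 letters TGANTCA, which read the same on both strands. Windows of 250 bases before to 50 bases after the start were on hand for 30 of the 34 members, those of Gclc, Gsr, Hmox1 and Prdx6 being named only. The core occurred in 15 of these 30 genes (50%), against 45% of 27025 genes, and its stricter form TGACNNNGC in 8 (26.7%), against 14.0%. AP-1 letters were found in 4 (13.3%), against 9.0%, and the NF-kB motif searched in 1, Txn1 (3.3%), against 1.9%. These letters describe the windows and are not evidence of binding.

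Library totals ran from 2360244 counts (HFD 0 h replicate 3) to 20688308 (HFD 24 h replicate 3), and the next shallowest held 9135057. HFD 0 h replicate 3 also stood alone on the second principal component of all tested genes, so counts that rest on it are given without it as well. Levels are given as CPM, counts scaled to the library total. Single genes are compared only between libraries, since CPM are not divided by length. The marker lists below differ in their genes and in length, so the order of their sums does not give shares of cells. Macrophage markers had the highest sum of the marker lists in every library: 10 markers summed to 9975 to 12472 CPM in HFD 24 h, 14106 to 15715 in HFD 0 h, 9677 to 10893 in chow 24 h and 14294 to 15599 in chow 0 h. The 6 mesothelial or stromal markers, mostly Col1a1 and Col1a2, came next, at 872 to 949 CPM in HFD 24 h, 571 to 1194 in HFD 0 h, 894 to 2523 in chow 24 h and 654 to 1949 in chow 0 h. Markers of B cells summed to at most 20.1 CPM, of T cells to at most 2.41, of mast cells to at most 25.6 and of red cells to at most 1.27. The large peritoneal macrophage markers Gata6 and Timd4 were low, with group means of 5.82 to 13.1 CPM for Gata6 and 0.581 to 4.11 CPM for Timd4.

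The members took a larger share of all counts after 24 h of LPS than at 0 h in both diets. They made up 0.959%, 0.986% and 0.92% of the counts in the HFD 24 h libraries and 0.689%, 0.669% and 0.555% in the HFD 0 h libraries. In chow they made up 1.12%, 1.15% and 1.15% at 24 h and 0.738%, 0.74% and 0.752% at 0 h. The groups did not overlap between times in either diet, and the HFD shares lay below the chow shares at both times. Not every role had a higher mean sum at 24 h in both diets. A sum can also hide opposite changes, and that of glutathione use holds a fall of Gpx1 and a rise of Esd, given below. Mean sums of glutathione use were 2106 CPM in HFD 24 h, 2235 in HFD 0 h, 2207 in chow 24 h and 2293 in chow 0 h. For the thioredoxin system they were 1133, 1180, 1232 and 1229 CPM in the same order. Each other role had a higher mean sum at 24 h in both diets. For the regulators, however, the library sums overlapped between times. They were 954 to 1070 CPM in HFD 24 h and 800 to 981 in HFD 0 h. In chow they were 1009 to 1243 CPM at 24 h and 1007 to 1063 at 0 h. In bulk RNA, fewer cells of a type and less RNA per cell cannot be told apart.

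By gene, 11 of the 34 members rose and 4 fell in HFD macrophages at 24 h over 0 h, and 12 rose and 5 fell in chow macrophages (edgeR quasi-likelihood test, Benjamini-Hochberg adjusted p under 0.05 over all 12641 genes). Of all tested genes, 12.7% rose and 12% fell in HFD, and 13.7% rose and 12.9% fell in chow. Among the members, 32.4% rose and 11.8% fell in HFD, and 35.3% rose and 14.7% fell in chow, so the share of decreases was near the background. The median log2 fold change of the members was 0.21 in HFD and 0.21 in chow, against 0.00 over all genes in both. The 24 h libraries lay above all 0 h libraries for 13 members and below them for 6 in HFD, against 18.2% and 17.2% of genes. In chow they lay above for 16 and below for 5, against 22.5% and 22.9%. Without HFD 0 h replicate 3, 10 members rose and 2 fell in HFD. Over all genes, leaving out any 1 library gave 1410 to 1804 increases and 1110 to 1569 decreases in HFD. The 24 h libraries then lay above for 14 members and below for 6 without that replicate, and the matching share of all genes was not computed. In both diets 10 members rose, namely Keap1, Slc7a11, Gclm, Gsr, Esd, Prdx1, Prdx5, Prdx6, Sod2 and Hmox1, which is 90.9% of the HFD increases and 83.3% of the chow increases. Gpx1 and Blvra fell in both, which is 50% of the HFD decreases and 40% of the chow decreases. The remaining calls passed in 1 diet alone (Osgin1, Gstp1 and Srxn1 in HFD; Mgst1, Prdx2, Nfe2l2, Gstm1 and Txnrd2 in chow), and the test of the difference between the diets, given below, found none of them.

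**Figure D1:**
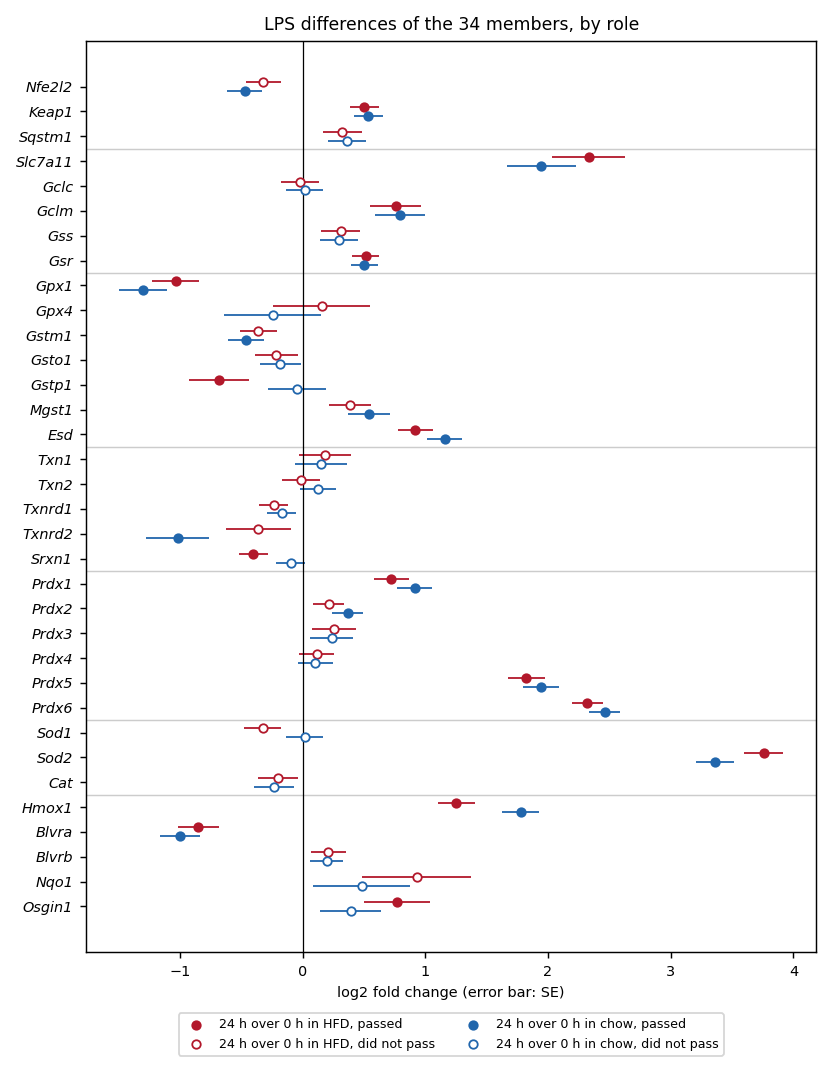
Log2 fold change of 24 h over 0 h of LPS for each of the 34 members, in HFD (red) and chow (blue), with bars of 1 SE; filled points passed an adjusted p of 0.05 and open points did not. Sod2 lies farthest to the right in both diets (3.76 and 3.36) and Gpx1 farthest to the left (-1.04 and -1.30).

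Of the 3 regulators, Keap1 rose in both diets and Nfe2l2 fell in chow. NRF2 is controlled mainly through the stability of its protein. Nfe2l2 measured 229, 229 and 245 CPM in HFD 24 h against 321, 270 and 289 CPM in HFD 0 h. In chow it measured 196, 201 and 278 CPM at 24 h against 280, 331 and 327 CPM at 0 h. All 24 h libraries lay below all 0 h libraries of the same diet, narrowly in the chow libraries, and the decrease passed the test in chow (log2 fold change -0.47 ± 0.14 SE, adjusted p = 0.0205) but not in HFD (-0.32 ± 0.14, adjusted p = 0.119). Keap1, the adaptor that marks NRF2 for degradation, had 98.3, 100 and 84.1 CPM in HFD 24 h against 68.9, 63.5 and 67.4 CPM in HFD 0 h. The chow values were 109, 103 and 100 CPM at 24 h against 73.2, 71.7 and 70.6 CPM at 0 h. Every 24 h library was above every 0 h library, by log2 0.50 ± 0.12 in HFD (adjusted p = 0.00472) and 0.53 ± 0.12 in chow (adjusted p = 0.00237). Sqstm1, the autophagy receptor p62 that competes for KEAP1, ranged from 624 to 742 CPM in HFD 24 h, 466 to 624 in HFD 0 h, 630 to 940 in chow 24 h and 611 to 665 in chow 0 h, and did not pass in either diet.

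Among the 5 genes of glutathione supply, 3 rose in both diets: Slc7a11, Gclm and Gsr. Slc7a11, the light chain of the cystine and glutamate exchanger whose cystine feeds glutathione synthesis, had 141, 76 and 233 CPM in HFD 24 h against 34.8, 26.7 and 27 CPM in HFD 0 h. Chow libraries had 187, 204 and 180 CPM at 24 h against 48.1, 50.1 and 50.4 CPM at 0 h. The times did not overlap in either diet, although the HFD 24 h libraries differed widely among themselves, and the increase was log2 2.33 ± 0.30 in HFD (adjusted p = 2.74e-05) and 1.94 ± 0.28 in chow (adjusted p = 9.24e-05). Its promoter stretch and that of Gclm are among those printed above. Gclm, the modifier subunit of glutamate-cysteine ligase, had 69.3, 113 and 121 CPM in HFD 24 h against 64.2, 51.7 and 65.1 CPM in HFD 0 h. Chow libraries held 94, 100 and 150 CPM at 24 h against 62.2, 65.7 and 70.5 CPM at 0 h. The groups stayed apart, by a small margin in HFD, with increases of log2 0.76 ± 0.21 in HFD (adjusted p = 0.012) and 0.79 ± 0.20 in chow (adjusted p = 0.00718). Gclc, the catalytic subunit of the same ligase, lay between 37.6 and 51.4 CPM in all 12 libraries and did not pass (-0.02 ± 0.16 in HFD and 0.01 ± 0.15 in chow). Gsr, the reductase that returns oxidised glutathione to its reduced form, had 183, 193 and 210 CPM in HFD 24 h against 135, 132 and 145 CPM in HFD 0 h. The chow libraries had 213, 210 and 217 CPM at 24 h against 151, 148 and 155 CPM at 0 h. The replicates of Gsr lay close together, and its increase was log2 0.51 ± 0.11 in HFD (adjusted p = 0.00226) and 0.50 ± 0.11 in chow (adjusted p = 0.00244). Gss, glutathione synthetase, did not pass (0.31 in HFD, adjusted p = 0.185; 0.30 in chow, adjusted p = 0.18).

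Of the 7 enzymes that use glutathione, 1 rose and 2 fell in HFD, and 2 rose and 2 fell in chow. Gpx1, the cytosolic glutathione peroxidase, had 569, 665 and 395 CPM in HFD 24 h against 1236, 1325 and 780 CPM in HFD 0 h. The chow values were 475, 465 and 508 CPM at 24 h against 1169, 1106 and 1297 CPM at 0 h. No 24 h library reached the lowest 0 h library, and Gpx1 fell by log2 1.04 ± 0.19 in HFD (adjusted p = 0.000617) and by 1.30 ± 0.20 in chow (adjusted p = 6.99e-05). Esd, S-formylglutathione hydrolase, which frees glutathione at the end of formaldehyde detoxification, went the other way, with 914, 1044 and 877 CPM in HFD 24 h against 511, 549 and 442 CPM in HFD 0 h. Its chow values were 1015, 1000 and 1363 CPM at 24 h against 496, 490 and 530 CPM at 0 h. The increase of Esd was log2 0.92 ± 0.14 in HFD (adjusted p = 0.000107) and 1.16 ± 0.14 in chow (adjusted p = 8.57e-06). Mgst1, a membrane-bound glutathione transferase, rose in chow to 229, 274 and 350 CPM at 24 h against 194, 190 and 204 CPM at 0 h (0.54 ± 0.17, adjusted p = 0.027). In HFD its libraries overlapped, at 280, 331 and 222 CPM at 24 h against 207, 247 and 181 CPM at 0 h (0.39, adjusted p = 0.118). Gstm1, a cytosolic glutathione transferase, fell in chow to 200, 183 and 174 CPM at 24 h against 222, 265 and 280 CPM at 0 h (-0.46 ± 0.15, adjusted p = 0.0289). Its HFD libraries held 229, 171 and 180 CPM at 24 h against 294, 220 and 231 CPM at 0 h and overlapped (-0.36, adjusted p = 0.0918). Gstp1, another cytosolic transferase with AP-1 letters inside its promoter element, fell in HFD to 19.4, 13.8 and 14.6 CPM at 24 h against 23.1, 24 and 31 CPM at 0 h (-0.68 ± 0.24, adjusted p = 0.0499). In chow Gstp1 had 22.2, 25.6 and 12.8 CPM at 24 h against 25.5, 17.5 and 19.3 CPM at 0 h, fully overlapping (-0.05, adjusted p = 0.913). Gstm1 and Gstp1 have near-identical relatives in the mouse genome and the counting of shared reads is not given, so their levels are uncertain. Gpx4, which reduces lipid hydroperoxides in membranes, ranged from 17.1 to 75.3 CPM with its lowest value in HFD 0 h replicate 3 and did not pass (0.15 ± 0.40 in HFD and -0.24 ± 0.40 in chow). Gsto1, the omega transferase, did not pass either (-0.21 in HFD and -0.18 in chow).

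None of the 5 genes of the thioredoxin system rose in either diet. Srxn1, sulfiredoxin, which repairs overoxidised peroxiredoxins, fell in HFD to 210, 213 and 214 CPM at 24 h against 273, 258 and 313 CPM at 0 h (-0.40 ± 0.12, adjusted p = 0.0188). In chow it had 287, 281 and 260 CPM at 24 h against 301, 270 and 316 CPM at 0 h, with overlap (-0.10 ± 0.12, adjusted p = 0.604). Txnrd2, the mitochondrial thioredoxin reductase, fell in chow to 10.4, 9.86 and 4.78 CPM at 24 h against 15.8, 18 and 16.6 CPM at 0 h (-1.02 ± 0.26, adjusted p = 0.00666). Its HFD libraries overlapped at 15.3, 10.1 and 9.37 CPM at 24 h against 13.8, 15.1 and 15.7 CPM at 0 h (-0.36, adjusted p = 0.36). Txn1 and Txn2, the cytosolic and mitochondrial thioredoxins, and Txnrd1, the cytosolic reductase, did not pass in either diet, with log2 fold changes between -0.24 and 0.18.

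Of the 6 peroxiredoxins, 3 rose in HFD and 4 in chow, and none fell. Prdx6, the 1-Cys peroxiredoxin that takes electrons from glutathione, had 276, 281 and 266 CPM in HFD 24 h against 59.4, 58.5 and 44.5 CPM in HFD 0 h. Prdx6 in chow stood at 330, 356 and 337 CPM at 24 h against 60.9, 64.6 and 60.3 CPM at 0 h. The 24 h level was 5.07 times the 0 h level in HFD (log2 2.32 ± 0.13, adjusted p = 7.15e-10) and 5.51 times in chow (2.46 ± 0.13, adjusted p = 2.76e-10). Prdx6, like Fth1 described further on, has near-identical intronless copies in the mouse genome, so reads could be split between copies. Prdx5, found in mitochondria, peroxisomes and cytosol, had 572, 524 and 418 CPM in HFD 24 h against 125, 150 and 154 CPM in HFD 0 h. Chow libraries held 622, 714 and 542 CPM at 24 h against 164, 170 and 155 CPM at 0 h. Its increase was log2 1.82 ± 0.15 in HFD (adjusted p = 7.4e-08) and 1.94 ± 0.15 in chow (adjusted p = 2.94e-08). Prdx1, an abundant cytosolic peroxiredoxin that depends on thioredoxin, had 977, 948 and 740 CPM in HFD 24 h against 604, 552 and 457 CPM in HFD 0 h. Chow libraries had 1544, 1589 and 1304 CPM at 24 h against 823, 778 and 755 CPM at 0 h. Both diets showed separate groups, with increases of log2 0.72 ± 0.14 in HFD (adjusted p = 0.00105) and 0.91 ± 0.14 in chow (adjusted p = 0.000112). Prdx2, a cytosolic relative of Prdx1, rose in chow to 120, 127 and 137 CPM at 24 h against 100, 100 and 97.5 CPM at 0 h (0.36 ± 0.13, adjusted p = 0.0405). The HFD libraries of Prdx2 overlapped, at 134, 141 and 107 CPM at 24 h against 105, 112 and 113 CPM at 0 h (0.21, adjusted p = 0.258). Mitochondrial Prdx3 and Prdx4 of the endoplasmic reticulum did not pass in either diet (0.10 to 0.25).

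Sod2, the manganese superoxide dismutase of mitochondria and a known NF-kB target, had the largest difference of all 34 members in both diets. It lies on mouse chromosome 17 at 13007839 to 13018119, and its promoter window held none of the motifs searched. Sod2 had 1255, 1062 and 1380 CPM in HFD 24 h against 106, 85.1 and 80.4 CPM in HFD 0 h. Its chow values were 1073, 1218 and 1378 CPM at 24 h against 116, 123 and 117 CPM at 0 h. The 24 h mean was 13.6 times the 0 h mean in HFD (log2 3.76 ± 0.16, adjusted p = 3.93e-11) and 10.3 times in chow (3.36 ± 0.15, adjusted p = 8.31e-11). Sod1, the copper-zinc enzyme of the cytosol, did not pass in HFD (-0.33, adjusted p = 0.14) or in chow (0.01, adjusted p = 0.961). Catalase, the peroxisomal enzyme encoded by Cat, did not pass either (-0.21 in HFD and -0.24 in chow).

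**Figure D2:**
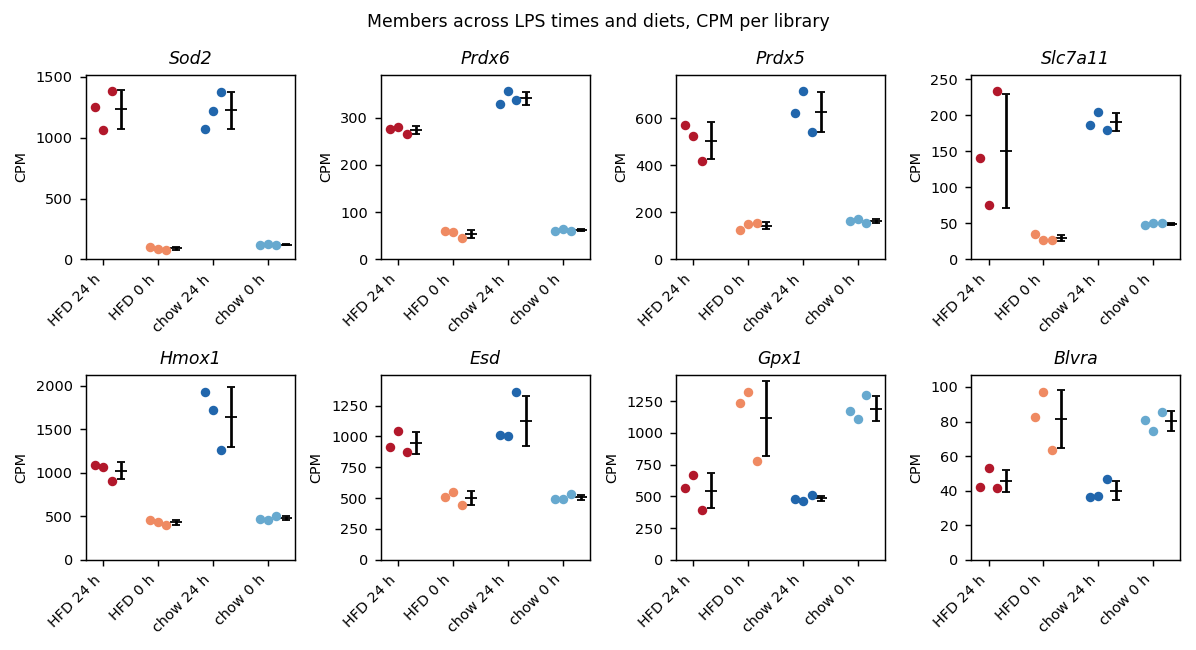
CPM of 8 members in each of the 12 libraries, by group (points), with group mean and SD (black). For Sod2, Prdx6, Prdx5, Slc7a11, Hmox1 and Esd the 24 h libraries of a diet lie above its 0 h libraries, and for Gpx1 and Blvra they lie below.

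Within haem breakdown Hmox1 rose and Blvra fell in both diets. Hmox1, haem oxygenase 1, which opens the haem ring to biliverdin, iron and carbon monoxide, had 1088, 1068 and 909 CPM in HFD 24 h against 457, 429 and 402 CPM in HFD 0 h. The chow libraries held 1930, 1724 and 1264 CPM at 24 h against 473, 461 and 502 CPM at 0 h. The 24 h mean was 2.38 times the 0 h mean in HFD (log2 1.25 ± 0.15, adjusted p = 6.08e-06) and 3.43 times in chow (1.78 ± 0.15, adjusted p = 1.01e-07). Blvra, biliverdin reductase A, which makes bilirubin, had 42.1, 52.9 and 41.6 CPM in HFD 24 h against 82.5, 97.3 and 63.8 CPM in HFD 0 h. Chow libraries of Blvra held 36.5, 36.9 and 46.6 CPM at 24 h against 81.1, 74.3 and 85.8 CPM at 0 h. It fell in both, by log2 0.85 ± 0.16 in HFD (adjusted p = 0.000811) and by 1.005 ± 0.16 in chow (adjusted p = 0.000153). Blvrb, biliverdin reductase B, did not pass for LPS (0.21 in HFD and 0.19 in chow). Osgin1, an oxidative stress-induced growth inhibitor, had 12.1, 8.73 and 6.88 CPM in HFD 24 h against 6.45, 5.45 and 3.14 CPM in HFD 0 h (0.77 ± 0.27, adjusted p = 0.0477). In chow it had 11.3, 13.2 and 10.3 CPM at 24 h against 9.98, 7.53 and 9.06 CPM at 0 h (0.39, adjusted p = 0.282). Nqo1, the quinone reductase often used to read NRF2 activity, was barely detected, at 2.45, 3.47 and 3.14 CPM in HFD 24 h, 1.56, 2.11 and 0.449 CPM in HFD 0 h, 3.51, 2.51 and 4.32 CPM in chow 24 h and 2.06, 3.81 and 1.58 CPM in chow 0 h. Its differences did not pass (0.93 ± 0.45 in HFD and 0.48 ± 0.40 in chow), and 3 counts equal 1.35 CPM in the shallowest library on the same scale.

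Some of these calls rested on single libraries or changed with a sequencing lane tag that the names of 4 libraries carry. In HFD, Gclm did not pass without 0 h replicate 2 (adjusted p = 0.0604) or 24 h replicate 3 (0.0657), and Srxn1 did not pass without 0 h replicate 3 (0.06) or without any 1 of the 24 h replicates (0.0544 to 0.0565). Gstp1 lost its call without any 1 HFD 0 h or chow 0 h library, HFD 24 h replicate 2 or 3 or chow 24 h replicate 1 (adjusted p up to 0.164), and Osgin1 without replicate 2 or 3 of HFD 0 h or chow 0 h, or replicate 1 or 2 of HFD 24 h or chow 24 h (up to 0.165). In chow, Nfe2l2 lost its call without 0 h replicate 2 or 3 or 24 h replicate 1 or 2 (adjusted p up to 0.14), and Gstm1 without replicate 2 or 3 of either time (up to 0.113). Mgst1 did not pass without any 1 of the chow 0 h libraries or 24 h replicate 3 (up to 0.127), and Prdx2 without any 1 of the chow 0 h libraries or 24 h replicate 2 or 3 (up to 0.133). Conversely, Sqstm1 passed in chow without 24 h replicate 3 (0.54, adjusted p = 0.00908), and in HFD Sod1 and Gstm1 passed as decreases without 24 h replicate 1 (0.0144 and 0.0302) and Mgst1 as an increase without 24 h replicate 3 (0.0426). The lane tag is carried by the 3 chow 24 h libraries, by HFD 24 h replicate 1 and by no 0 h library. Names without the tag do not show another lane. The names also carry a number after the letter S, and in chow the numbers used at 0 h recur at 24 h. HFD 0 h replicate 3 shares its number with chow 0 h replicate 2. What these numbers mark is not given, and a batch behind them could not be told apart from LPS in chow. In chow the tag coincides with 24 h, so its effect came only from HFD 24 h replicate 1 against replicates 2 and 3. Chow values with the tag as a covariate therefore carry the deviation of that 1 library and cannot separate tag from LPS. With the lane tag as a covariate 6 chow calls were lost, at larger SEs: Nfe2l2 (-0.425 ± 0.26, adjusted p = 0.362), Keap1 (0.44 ± 0.21, 0.215), Mgst1 (0.52 ± 0.32, 0.365), Prdx1 (0.70 ± 0.26, 0.101), Prdx2 (0.25 ± 0.23, 0.564) and Blvra (-0.84 ± 0.29, 0.0764). In HFD the covariate left the 24 h level to replicates 2 and 3, much as leaving out replicate 1 did. It ended the call of Osgin1 (0.53 ± 0.27, adjusted p = 0.183), while Sod1 (-0.53 ± 0.14, adjusted p = 0.0126) and Gstm1 (-0.50 ± 0.16, adjusted p = 0.0285) then passed as decreases. With upper-quartile factors Nfe2l2 and Gstm1 passed as decreases in HFD (adjusted p = 0.0421 and 0.0342). The increases of Osgin1 in HFD (0.0712) and of Mgst1 and Prdx2 in chow (0.0508 and 0.0988) did not pass with these factors. With no filter, Gstp1 and Srxn1 in HFD and Prdx2 in chow lost their calls (0.0509, 0.0825 and 0.0538). Gstp1 and Osgin1 lost theirs in HFD with limma-voom (0.0636 and 0.148) or summed identifiers (0.0671 and 0.0561). With only the HFD libraries Srxn1 and Osgin1 did not pass (0.0748 and 0.108). Slc7a11, Gsr, Gpx1, Esd, Prdx5, Prdx6, Sod2 and Hmox1 kept their calls in both diets under each of the 23 alternatives other than the test for a change above 1.5-fold, which Gsr did not pass.

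Cell type markers also moved with LPS. Of the 10 macrophage markers, Adgre1, Timd4 and Cd14 rose and Lyz2 fell in both diets, and Lyz2 had group means of 4854 CPM in HFD 24 h, 9907 in HFD 0 h, 4474 in chow 24 h and 9824 in chow 0 h. The 5 neutrophil markers summed to 20.3 to 32.2 CPM in HFD 24 h, 11.3 to 13.5 in HFD 0 h, 25.2 to 51.4 in chow 24 h and 8.39 to 9.88 in chow 0 h. This was nearly all S100a8, while S100a9, Mpo, Elane and Ngp were at or near 0. The 3 eosinophil markers summed to 4.31 to 6.01 CPM in HFD 24 h, 13.5 to 23.2 in HFD 0 h, 3.28 to 4.71 in chow 24 h and 20.5 to 23.2 in chow 0 h, nearly all Siglecf, with Epx and Prg2 at or near 0. Of the 6 mesothelial or stromal markers 1 was called in each diet, a decrease of Upk3b at group means of at most 1.95 CPM, and 3 had log2 fold changes above 0 in each. Their sum, given above, overlapped between times in both diets, with Col1a1 at 0.12 ± 0.44 in HFD and 0.65 ± 0.44 in chow, neither passing. The part of other cells in the LPS differences was not tested.

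Beyond the 34 members, 76 other genes of the same pathways were listed and 72 were tested. Of these, 24 rose (33.3%) and 12 fell (16.7%) in HFD, and 21 rose (29.2%) and 12 fell (16.7%) in chow, against the same backgrounds of 12.7% and 12%, and of 13.7% and 12.9%. Glrx, glutaredoxin 1, which removes glutathione from proteins, rose by log2 3.23 ± 0.20 in HFD (adjusted p = 2.79e-09) and 3.46 ± 0.20 in chow (adjusted p = 7.63e-10). Glrx stood at 158, 153 and 140 CPM in HFD 24 h against 18.1, 18.2 and 8.54 CPM in HFD 0 h, and at 217, 218 and 209 CPM in chow 24 h against 16.1, 18.5 and 24.1 CPM in chow 0 h. Trim21, a ubiquitin ligase reported to act on p62, also rose (1.67 ± 0.17 in HFD, adjusted p = 1.27e-06; 1.93 ± 0.16 in chow, adjusted p = 1.09e-07). Lap3, leucine aminopeptidase 3, rose by 1.74 ± 0.21 in HFD (adjusted p = 6.41e-06), and Ptgr1, an NADPH-dependent reductase of lipid aldehydes and prostaglandins, by 1.39 ± 0.13 in chow (adjusted p = 3.9e-07). Each is given only for the diet in which it ranked among the smallest adjusted p. The test of the difference between the diets, given below, found neither. Fth1, the ferritin heavy chain that stores the iron freed from haem, rose by 1.08 ± 0.19 in HFD (adjusted p = 0.000412) and 1.39 ± 0.19 in chow (adjusted p = 3.39e-05), where the lane tag left 1.09 ± 0.36 (adjusted p = 0.0599).

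Bach1, Sesn1, Msra and Txnip were among the genes that fell. Bach1, which competes with NRF2 at antioxidant response elements and represses Hmox1, had 70.4, 85.9 and 68.4 CPM in HFD 24 h against 170, 177 and 194 CPM in HFD 0 h. In chow Bach1 had 75.7, 83.4 and 75.2 CPM at 24 h against 171, 166 and 169 CPM at 0 h. The groups were far apart, and the decrease was log2 -1.26 ± 0.13 in HFD (adjusted p = 7.54e-07) and -1.11 ± 0.12 in chow (adjusted p = 2.83e-06). Sesn1, a sestrin, fell further (-2.40 ± 0.21 in HFD, adjusted p = 1.63e-07; -2.48 ± 0.21 in chow, adjusted p = 1.15e-07). Msra, which repairs oxidised methionine, fell by 1.57 ± 0.18 in HFD (adjusted p = 3.51e-06) and by 1.39 ± 0.18 in chow (adjusted p = 1.08e-05). Txnip, the inhibitor of thioredoxin, fell by 0.60 ± 0.15 in HFD (adjusted p = 0.00643) and by 0.54 ± 0.15 in chow (adjusted p = 0.0117). The HFD call of Txnip was lost without HFD 24 h replicate 1 (adjusted p = 0.0515), and its chow call on leaving out replicate 3 at 0 h or replicate 1 or 2 at 24 h (0.0684 to 0.0958). With the lane tag the chow value of Txnip was -0.16 ± 0.25 (adjusted p = 0.76).

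NADPH, the common electron donor of both systems, had 8 listed enzymes, of which 2 rose and 2 fell in each diet. G6pdx, the entry enzyme of the pentose phosphate pathway named in the title of the study, had 285, 265 and 299 CPM in HFD 24 h against 249, 190 and 126 CPM in HFD 0 h. In chow it had 282, 269 and 350 CPM at 24 h against 190, 200 and 249 CPM at 0 h. The times did not overlap in either diet. The HFD increase passed (0.57 ± 0.19, adjusted p = 0.0365), the chow difference was 0.50 ± 0.19 (adjusted p = 0.0651), and that between the diets was 0.08 ± 0.27 (adjusted p = 1). Without HFD 0 h replicate 3, the library with 126 CPM, the HFD value was 0.37 ± 0.16 and did not pass (adjusted p = 0.117), while the chow value passed (0.49 ± 0.14, adjusted p = 0.0167). The HFD call was also lost without HFD 0 h replicate 2, HFD 24 h replicate 1 or 3, or chow 0 h replicate 2 (adjusted p of 0.0504 to 0.0844). It was lost too with the lane tag (0.0746), upper-quartile factors (0.0508) or only the HFD libraries (0.0649). The chow difference passed with no filter (0.0433), DESeq2 (0.0398), limma-voom (0.0471), only the chow libraries (0.0194) and a replicate block (0.0271). It also passed without chow 0 h replicate 3 (0.0497) or HFD 0 h replicate 1 (0.0318). The other calls, named after their values were seen, were increases of the mitochondrial folate enzyme Mthfd2 in both diets (1.20 ± 0.17 in HFD and 1.49 ± 0.16 in chow) and of malic enzyme Me1 in chow (1.22 ± 0.40). Me1 did not pass on leaving out 0 h replicate 1 or 3 or 24 h replicate 1 of chow (adjusted p of 0.0532 to 0.134), or with the lane tag (0.138). The decreases were of the pentose phosphate enzyme Taldo1 (-1.02 ± 0.16 in HFD and -0.85 ± 0.15 in chow) and of isocitrate dehydrogenase Idh1 (-1.04 ± 0.17 in HFD and -1.27 ± 0.17 in chow).

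**Figure D3:**
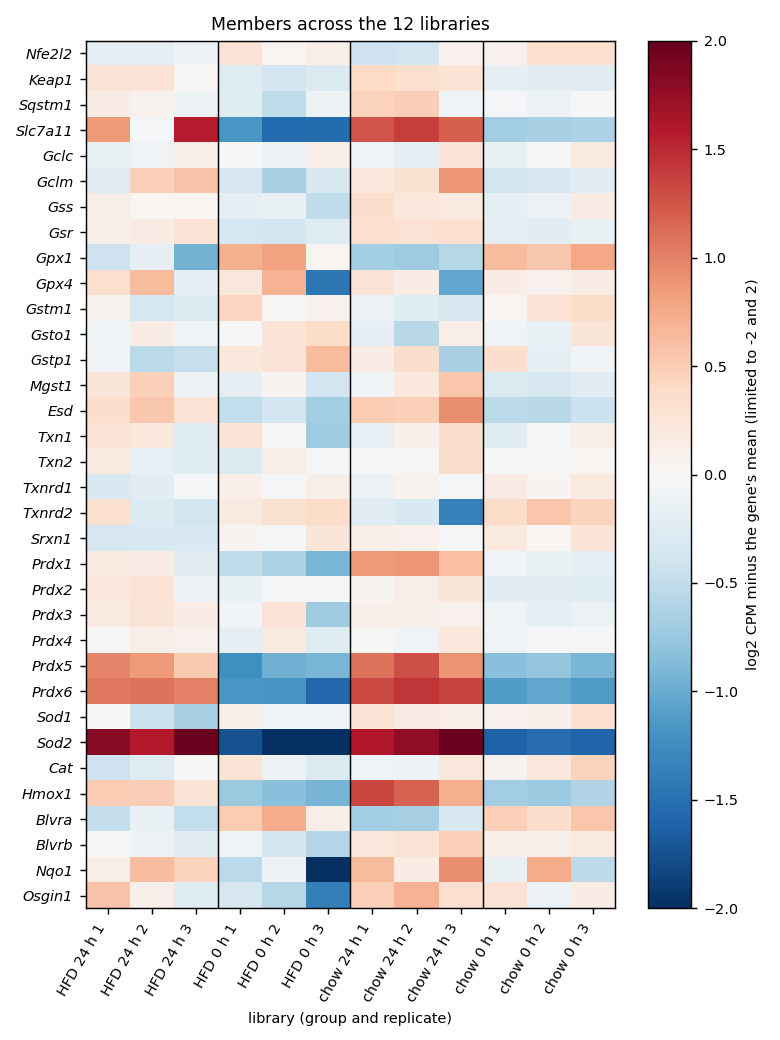
Log2 CPM of the 34 members (down the page, by role) in the 12 libraries (across), each gene centred on its own mean over the libraries and limited to -2 and 2. Sod2, Prdx6, Prdx5 and Slc7a11 change colour between the 24 h and 0 h libraries of both diets, and Gpx1 and Blvra change the opposite way.

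Between diets no member passed at either single time. At 24 h of LPS 0 members were called for HFD against chow (edgeR), against a background of 0.00791% of genes higher and 0% lower. Unadjusted p fell under 0.05 for 7 of the 34 members, all lower in HFD (Srxn1, Prdx1, Prdx5, Prdx6, Sod1, Hmox1 and Blvrb). Over all 12641 genes it did so for 993, counted in either direction. DESeq2 called 2 members (Prdx1 and Hmox1) and limma-voom 1 (Prdx1). At 0 h no member passed either, against 0% higher and 0.087% lower. Here 5 of the 34 members had an unadjusted p under 0.05, all lower in HFD (Slc7a11, Prdx1, Sod2, Blvrb and Osgin1). Of all 12641 genes 778 had one, in either direction. DESeq2 called 1 member (Prdx1) and limma-voom 0. Log2 fold changes were above 0 for 10 of 34 members at 24 h and for 8 of 34 at 0 h. The members' median log2 fold change was -0.16 at 24 h and -0.10 at 0 h, against 0.00 over all genes at both times.

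Several members had libraries that separated by diet all the same. At 24 h all 3 HFD libraries lay below all 3 chow libraries for 8 members (23.5%; Gss, Gsr, Srxn1, Prdx1, Prdx6, Sod1, Hmox1 and Blvrb), against 5.99% of genes, and above them for 1 (Prdx3), against 6.28%. At 0 h they lay below for 11 members (32.4%; Keap1, Slc7a11, Gsr, Txnrd2, Prdx1, Prdx5, Prdx6, Sod2, Hmox1, Blvrb and Osgin1), against 6.35%, and above for 1 (Prdx2), against 5.87%. Without HFD 0 h replicate 3 the 0 h counts were 12 below, against 12.2% of genes, and 4 above, against 13.7%. The members are not independent of each other, and the same libraries enter every one of these counts.

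**Figure D4:**
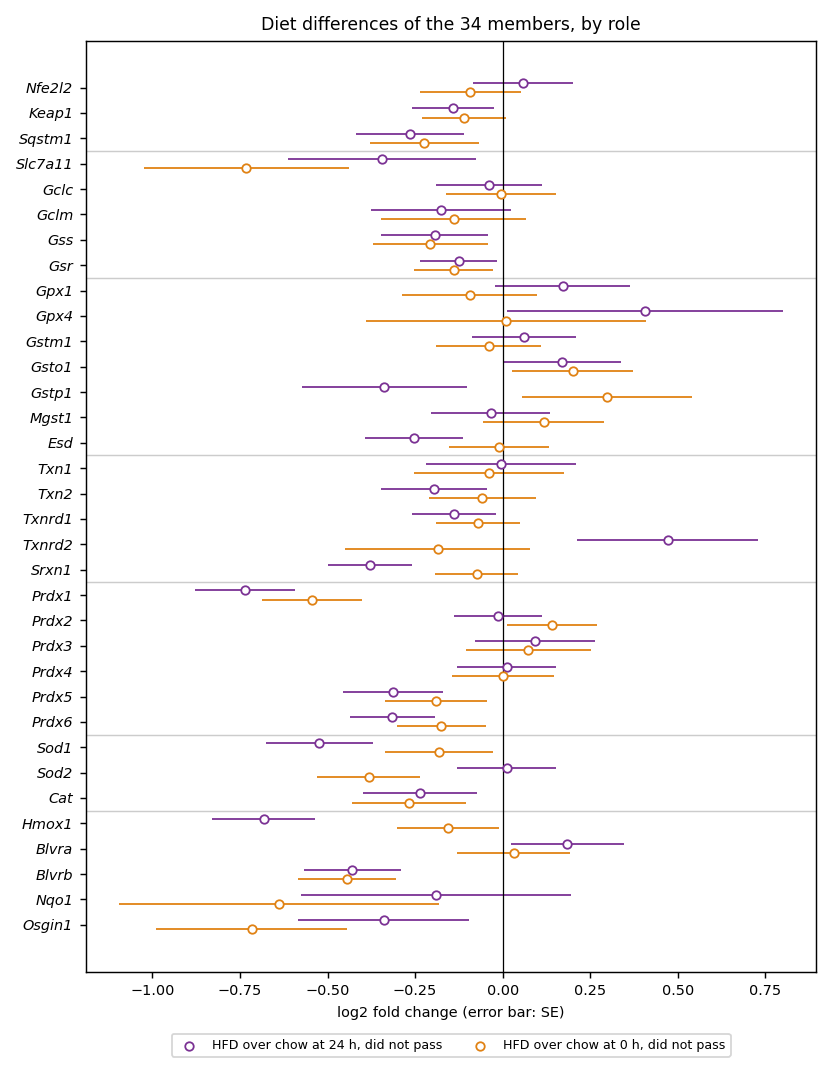
Log2 fold change of HFD over chow for each of the 34 members at 24 h (purple) and 0 h (orange) of LPS, with bars of 1 SE; no point passed an adjusted p of 0.05. Most points lie left of 0, with Prdx1 at -0.74 and -0.55.

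Prdx1 (chromosome 4, 116685599 to 116700000) was the member that passed a diet test, the average over both times. Its level was 888 ± 129 CPM in HFD 24 h and 1479 ± 153 CPM in chow 24 h (SD, n = 3 each), a ratio of 0.601. At 0 h it was 538 ± 74.6 CPM in HFD and 785 ± 34.8 CPM in chow, a ratio of 0.684. Every HFD library lay below every chow library at the same time, with log2 fold changes of -0.74 ± 0.14 at 24 h (adjusted p = 0.121) and -0.55 ± 0.14 at 0 h (adjusted p = 0.275). Averaged over both times it passed, as did no other member, lower in HFD at log2 -0.64 ± 0.10 (adjusted p = 0.00983), against 0.316% of genes lower and 0.166% higher. This average, like those of other genes below, counts the 0 h and 24 h libraries of a diet as independent. Their label numbers recur at both times. If a number marks a single animal, the SE of an average may be too small, and no alternative allowed for that. Without HFD 0 h replicate 3 the average was -0.59 ± 0.10 (adjusted p = 0.0117). With the lane tag as a covariate it was -0.57 and did not pass (adjusted p = 0.127). Among the 24 h libraries that share the tag, HFD replicate 1 had 977 CPM, against 1304 to 1589 CPM in the 3 chow libraries.

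None of the 6 mesothelial or stromal markers passed for diet at 24 h, at 0 h or on average. They summed to 949, 909 and 872 CPM in HFD 24 h against 2523, 1813 and 894 CPM in chow 24 h, and to 571, 736 and 1194 CPM in HFD 0 h against 1949, 1080 and 654 CPM in chow 0 h. The diets overlapped at both times, and the median log2 fold change of the 6 was -0.67 at 24 h and -0.47 at 0 h. The 3 dendritic cell markers summed to 1.74 to 2.59 CPM in HFD 24 h and 3.08 to 3.59 in chow 24 h, and to 1.35 to 2.89 in HFD 0 h and 2.58 to 4.75 in chow 0 h. The part of these cells in the diet differences was not tested.

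Of the other members, Blvrb and Hmox1 came closest to the threshold on the average over both times. Blvrb had 209, 193 and 178 CPM in HFD 24 h and 241, 250 and 288 CPM in chow 24 h. At 0 h it had 199, 162 and 138 CPM in HFD and 223, 222 and 237 CPM in chow. The diets did not overlap at either time, and the average difference was -0.44 ± 0.10 (adjusted p = 0.0595). That average passed with upper-quartile factors (adjusted p = 0.0471), no filter (0.041), DESeq2 (0.00256) and limma-voom (0.0488), and without HFD 0 h replicate 1 (0.0432). It did not pass under the other 17 of the 22 alternatives besides the 1.5-fold test (adjusted p up to 0.359). Hmox1 did not pass at 24 h (-0.68 ± 0.15, adjusted p = 0.172), at 0 h (-0.16, adjusted p = 0.959) or on average (-0.42 ± 0.10, adjusted p = 0.0889). At 24 h the 1 HFD library with the lane tag had 1088 CPM of Hmox1, against 1264 to 1930 CPM in chow, and without chow 24 h replicate 3 the 24 h difference was -0.82 (adjusted p = 0.0437) and the average -0.49 (adjusted p = 0.0148). DESeq2 also called the average of Hmox1 (adjusted p = 0.00784). Under the other 20 of these 22 alternatives the Hmox1 average did not pass (adjusted p up to 0.444). Sod1 had 129, 96 and 82.2 CPM in HFD 24 h and 156, 144 and 141 CPM in chow 24 h (-0.52 ± 0.15, adjusted p = 0.401), and its average was -0.35 (adjusted p = 0.182). Srxn1, at 210 to 214 CPM in HFD 24 h and 260 to 287 CPM in chow 24 h, differed by -0.38 ± 0.12 (adjusted p = 0.459), and on average by -0.23 (adjusted p = 0.279). Slc7a11 had the lowest log2 fold change of the members at 0 h, with 34.8, 26.7 and 27 CPM in HFD and 48.1, 50.1 and 50.4 CPM in chow (-0.73 ± 0.29, adjusted p = 0.706). Its average over times was -0.54 (adjusted p = 0.283). Without HFD 24 h replicate 3 the Slc7a11 average passed (-0.77, adjusted p = 0.022), and without HFD 24 h replicate 1 that of Sod1 did (-0.45, adjusted p = 0.0416). Neither passed under the other 21 of its 22 alternatives (adjusted p up to 0.572 for Slc7a11 and 0.716 for Sod1). Of the other 72 pathway genes none passed at 24 h or 0 h, and 1, Ptgr1, passed on average (-0.46 ± 0.09, adjusted p = 0.0354). Ptgr1 lost that call without any 1 of 8 libraries, replicates 1 and 2 of chow 0 h, chow 24 h and HFD 0 h and replicates 2 and 3 of HFD 24 h (adjusted p of 0.051 to 0.14), and with the lane tag (0.261), while at 24 h DESeq2 and limma-voom called it (0.000366 and 0.0455).

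**Figure D5:**
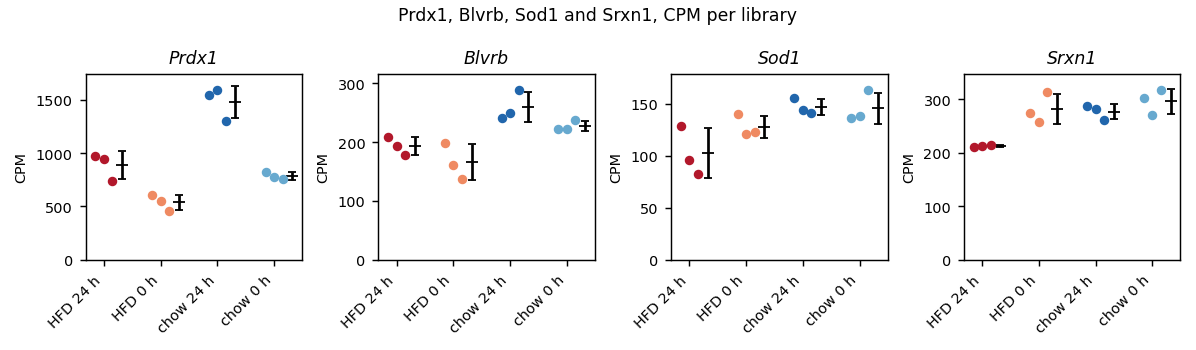
CPM of Prdx1, Blvrb, Sod1 and Srxn1 in each of the 12 libraries, by group (points), with group mean and SD (black). HFD 24 h points lie below chow 24 h points for all 4 genes, and HFD 0 h points lie below chow 0 h points for Prdx1 and Blvrb.

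The LPS responses of the diets were compared directly as the difference of their log2 fold changes, HFD minus chow. No member passed (edgeR), nor did any of the 12641 genes. An unadjusted p under 0.05 was found for 1 of the 34 members (Hmox1), and for 297 of the 12641 genes in either direction. DESeq2 and limma-voom called 0 members. For Hmox1 the difference was -0.53 ± 0.21 (adjusted p = 1), its increase being 1.25 in HFD and 1.78 in chow. For Sod2 it was 0.39 ± 0.20, and for Prdx1 -0.19 ± 0.20 (adjusted p = 1). A test that misses the threshold does not show that the responses of the diets were alike.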

How the data were processed

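RNA from peritoneal macrophages had been extracted with a Qiagen kit and made into libraries by a NuGen kit (Ovation Universal), per the labels' protocols, and the submitters' processing notes name CASAVA 1.8.2, STAR 2.5.2b and mm10. The authors deposited raw counts for 35745 RefSeq identifiers in 12 columns, matched to libraries by name. The read counter, annotation and strand setting were not given in the sources used here. Reads shared by genes on opposite strands of 1 locus may therefore be split either way. Symbols came from RefSeq for 35440 identifiers and from GENCODE for 188; 117 had none, held 2.33% to 12.02% of a library's counts and stayed in the totals. Each gene was represented by its identifier with the highest mean count, since isoforms share reads.

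Groups came from diet and LPS time in the labels. Any 2 libraries of a group differed beyond sampling noise (chi-square per degree of freedom 6.24 to 74), so all 12 stayed separate. Genes passing filterByExpr (12641) were tested in 1 model of 4 group means with edgeR 4.0.16 in R 4.3.3 (TMM, robust glmQLFit, glmQLFTest), with Benjamini-Hochberg adjustment over all tested genes at 0.05; the code was tested on simulated data. CPM used TMM-scaled totals, and an SE is the log2 fold change over the root of F, and so carries the same information as the p-value. The common biological coefficient of variation was 18%. Floors in counts cover counting error only.

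The members and the lists were chosen with earlier results of these data known. Every member is described, with values per library for those called at a mean of at least 10 CPM, and Osgin1 and Nqo1 were given per library in some groups below that level. From the other pathway lists, at most 3 called genes per direction and comparison with the smallest adjusted p are named, plus Fth1, G6pdx, Bach1 and Txnip. Outside that rule, Mthfd2, Me1, Taldo1 and Idh1 were named after their values were seen. Alternatives were other scalings and filters, DESeq2 1.42.0, limma-voom (limma 3.58.1), only the groups compared, a replicate block, the lane tag, summed identifiers, unnamed identifiers left out, a test above 1.5-fold (glmTreat) and each library left out; for the other pathway genes they were added after seeing the data. Promoter sequences are RefSeq's for GRCm38.p6, with a gene counted when any of its windows matched.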

Additional observations from a re-analysis of the deposited data

How the results depend on the processing

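No member reversed its direction where it had a call, in any alternative. Of the member values under alternatives, 4527 kept their call and direction, 78 lost a call, 25 gained one and 198 changed sign without a call. For LPS in HFD, 11 increases and 4 decreases became 6 and 1 with the test above 1.5-fold, and the decreases became 2 with no filter; leaving out 1 library gave 9 to 11 increases and 2 to 5 decreases. For LPS in chow, 12 increases and 5 decreases became 7 and 2 above 1.5-fold, and the decreases became 3 with the lane tag as a covariate (increases 8); leaving out 1 library gave 10 to 12 and 3 to 5. For diet at 24 h, 0 decreases became 1 with no filter, 2 with DESeq2 and 1 with limma-voom (0 to 1 on leaving out 1 library), and at 0 h 1 with DESeq2. For diet averaged over times, 1 decrease became 2 with upper-quartile factors, 2 with no filter, 3 with DESeq2, 2 with limma-voom, 0 with the lane tag and 0 above 1.5-fold (1 to 2 on leaving out 1 library). The cause was not tested, apart from the higher bar of the 1.5-fold test.

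Over all genes, LPS calls fell to 787 higher and 539 lower in HFD and 810 and 546 in chow above 1.5-fold, and to 874 and 635 in chow with the lane tag, against 1729 and 1628 without it. DESeq2 called 22 higher and 21 lower for diet at 24 h, 9 and 57 at 0 h, 87 and 175 on average and 8 and 1 for the difference of the LPS responses, against 1 and 0, 0 and 11, 21 and 40, and 0 and 0 with edgeR. No scaling moved the median of all genes by more than 0.074 on the log2 scale. With the label number within each diet as a block, 12 members rose and 5 fell in HFD, and 12 rose and 5 fell in chow. The diet comparisons had another block, the replicate number shared across diets, which no label ties to a pairing. They gave 0 members at each time and 1 decrease on average. Neither block moved a count of members by over 1.5 times. Under the label-number block Gstm1 (-0.36, adjusted p = 0.0469) and Mgst1 (0.39, adjusted p = 0.0345) also passed in HFD. After group means were removed, same-numbered 0 h and 24 h libraries correlated at 0.029 to 0.346 and different-numbered ones at -0.307 to 0.109, and 9 of 12 libraries correlated best with their own number, a hint from the data. Not every pair was above 0.1 and no label ties a number to a mouse, so the numbers were not taken as pairs; between diets same-numbered libraries correlated at -0.139 to 0.213. Depth limits Nqo1, with 1 count in its lowest library, and Osgin1.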
